A study of Mus musculus with 12 samples.

Results

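The calcineurin pathway was described here through 10 genes of the 55401 in the deposited tables: the regulators of calcineurin Rcan1, Rcan2 and Rcan3, the calcineurin subunit genes Ppp3ca, Ppp3cb and Ppp3r1, and the transcription factor genes Nfatc1, Nfatc2, Nfatc3 and Nfatc4. The genes were chosen by name, with the fall of the FPKM values of Rcan3 under proliferating conditions already known, so the comparison of NAD+ with Ctrl under proliferating conditions is given for them as a description without a test. RNA-seq had been performed on adult neural stem/progenitor cells (aNSPCs) isolated from the forebrain of C57BL/6 mice aged 8 to 10 weeks and cultured with EGF and FGF-2. The 12 samples form 4 groups of 3: Ctrl and 1 mM NAD+ (nicotinamide adenine dinucleotide, a redox cofactor) under proliferating conditions, and Ctrl and 1 mM NAD+ under differentiation conditions, for which the study's differentiation assays used 1 µM retinoic acid and 5 µM forskolin. No group carried a transgene or deletion. The sample labels list every sample as untreated, so the groups come from the sample titles. The replicates are called biological repeats by the study, and neither the labels nor the methods say whether they were separate cultures or animals, so p-values measure the spread between these samples, which may be technical.

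Calcineurin is a phosphatase that calcium and calmodulin switch on. It consists of a catalytic A subunit, encoded by Ppp3ca, Ppp3cb or Ppp3cc, and a calcium-binding regulatory B subunit, encoded by Ppp3r1 or Ppp3r2. Active calcineurin removes phosphates from the cytoplasmic NFATc proteins, which then enter the nucleus and bind DNA at a GGAAA core. RCAN proteins bind the catalytic subunit and can inhibit it, and an internal promoter of Rcan1 is itself a known NFAT target, which makes Rcan1 a feedback inhibitor of the pathway. In neural cells the pathway is best known for its part in synaptic plasticity and axon growth.

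Promoter sequences of Rcan1 and Rcan3 are shown because their windows differ in the number of NFAT core motifs, also between the windows of Rcan1. The sequences are from RefSeq (GRCm38.p6, which is the mm10 build) and read 5′ to 3′ on the strand of the gene. Each window begins 250 bases before a RefSeq start, bases that GENCODE M21 places in an exon were left out, and capitals mark GGAAA or its reverse complement TTTCC.
Rcan1 internal start, chr16:92400079-92400328, minus strand: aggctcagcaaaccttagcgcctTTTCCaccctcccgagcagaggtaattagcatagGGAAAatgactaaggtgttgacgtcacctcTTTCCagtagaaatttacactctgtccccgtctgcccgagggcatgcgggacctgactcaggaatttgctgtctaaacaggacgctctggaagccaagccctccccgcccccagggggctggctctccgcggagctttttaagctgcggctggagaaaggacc
Rcan1 upstream start, chr16:92466170-92466419, minus strand: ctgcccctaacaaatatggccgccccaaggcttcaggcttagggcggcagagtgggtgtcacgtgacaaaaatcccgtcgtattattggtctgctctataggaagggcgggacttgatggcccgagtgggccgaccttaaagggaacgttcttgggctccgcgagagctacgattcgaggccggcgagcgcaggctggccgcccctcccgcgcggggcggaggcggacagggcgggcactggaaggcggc
Rcan3 start, chr4:135433854-135434055, minus strand: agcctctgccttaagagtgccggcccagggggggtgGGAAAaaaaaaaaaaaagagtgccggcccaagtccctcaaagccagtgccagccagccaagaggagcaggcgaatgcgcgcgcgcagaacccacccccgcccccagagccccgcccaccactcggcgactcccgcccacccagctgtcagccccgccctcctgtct
The window at the internal start of Rcan1 held 3 matches to GGAAA on either strand. It also held 2 matches to TGACG or its reverse complement CGTCA, the core of the cAMP response element, which overlap each other in 1 palindrome. The window at the upstream start of Rcan1 held 0 matches to either motif, and the 202 bases shown for Rcan3 held 1 match to GGAAA and 0 to TGACG. Sequence of 8 of the 10 genes was searched, not of Nfatc1 and Ppp3ca, with 13 windows of 250 bases in all. GGAAA was present in 8 of these 13 windows and in 55.6% of the 32851 windows of all genes, and TGACG was present in 3 of the 13 and in 17.8% of all windows. Windows of Nfatc2, Nfatc4 and Ppp3cb also held 3 matches to GGAAA, as many as the internal start of Rcan1. How common 3 matches are over all genes was not counted. These matches describe the letters alone, and binding was not measured.

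The sums of the deposited FPKM values ran from 308828 to 363330 per sample, and read depth is unknown because the tables hold rounded FPKM values. The 6 progenitor markers had mean FPKM values of at least 1 in every group, and their summed FPKM values were 2486 to 2735 in proliferating Ctrl, 1501 to 2005 in proliferating NAD+, 727 to 817 in differentiation Ctrl and 732 to 811 in differentiation NAD+. The 6 astrocyte markers summed to 542 to 597, 468 to 591, 1149 to 1260 and 1646 to 1671 FPKM in the same order. The 6 oligodendrocyte lineage markers summed to 326 to 366, 281 to 314, 217 to 233 and 149 to 156 FPKM, and Mog was at 0 in all 3 proliferating Ctrl samples. The 6 neuron markers summed to 22.4 to 35.3 FPKM over all samples. None of the 7 leukocyte markers exceeded 0.29 FPKM in any sample, and 0 of the 6 endothelial and mural markers reached a group mean of 1 FPKM. Replicate 1 of both proliferating groups stood apart for Aqp4, an astrocyte water channel, with 13.7 and 9.95 FPKM against 2.42 to 5.82 FPKM in the other 4 proliferating samples. In bulk RNA, fewer cells of a type and less RNA per cell cannot be told apart, and the part of these markers in the results below was not tested.

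Rcan3 (ENSMUSG00000059713, chr4:135412308-135433853, minus strand), a member of the RCAN family that binds the catalytic subunit like its relatives, had lower FPKM values in NAD+ than in Ctrl under proliferating conditions. Its FPKM values were 6.37, 7.88 and 8.58 in Ctrl (7.61 ± 1.13, SD, n = 3) and 2.09, 1.79 and 1.80 in NAD+ (1.89 ± 0.170). All 3 NAD+ samples lay below all 3 Ctrl samples, and the ratio of the means was 4.02-fold lower in NAD+. On the scale of log2(FPKM + 0.1), the fitted change was -1.94 (SE 0.15), and it ran from -2.07 to -1.85 when any 1 of the 6 samples was left out. This is the value that chose the gene. Of the 6 progenitor markers 3 were lower in every proliferating NAD+ sample than in every Ctrl sample, namely Fabp7 (2107 ± 127 against 1317 ± 254 FPKM in Ctrl and NAD+), Pax6 and Msi1. Nes (68.8 ± 18.3 and 82.0 ± 17.7 FPKM), Sox2 and Vim overlapped, so the lower sum of the list was mostly that of Fabp7. The part of these markers in the values of Rcan3 was not tested.

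Under differentiation conditions the FPKM values of Rcan3 did not follow the groups. They were 1.45, 6.68 and 6.16 in Ctrl (4.76 ± 2.88) and 1.29, 1.13 and 5.68 in NAD+ (2.70 ± 2.58). Replicate 1 of Ctrl was nearly as low as replicates 1 and 2 of NAD+, and replicate 3 of NAD+ was nearly as high as replicates 2 and 3 of Ctrl. The fitted change was -0.91 (SE 0.78), with a 95% interval from -2.80 to 0.97 and an adjusted p of 0.531, so a change as large as that under proliferating conditions lies inside the interval. Without replicate 1 of Ctrl the change was -1.60 (adjusted p = 0.291), and without replicate 3 of NAD+ it was -1.63 (adjusted p = 0.260). Leaving out any 1 of the remaining samples made it smaller, between -0.60 and -0.51 (adjusted p from 0.748 to 0.784).

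Across all 12 samples the FPKM values of Rcan3 fell into a low range of 1.13 to 2.09 in 6 samples and a high range of 5.68 to 8.58 in the other 6 samples. The step between these ranges was 2.72-fold, and the largest step between neighbouring samples elsewhere in the order was 1.23-fold. All proliferating Ctrl samples were in the high range and all proliferating NAD+ samples in the low range, while each differentiation group had samples in both. The SD of Rcan3 within the differentiation groups was 1.22 on the log2 scale, and only 125 of the 12671 genes with a mean of at least 1 FPKM in that table (0.987%) had a larger one. Within the proliferating groups the SD was 0.18, and 50.1% of 12626 genes had a larger one. Rcan3 shares 44 exon bases with the miRNA gene Mir700 on the same strand, which was listed at 0.06 to 0.20 FPKM.

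**Figure D1:**
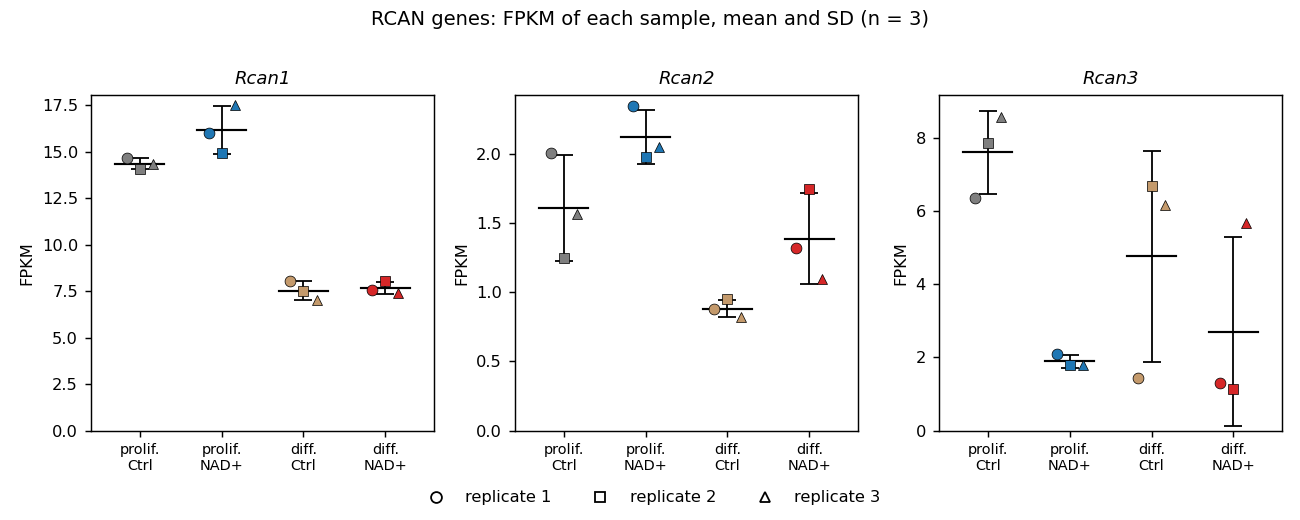
FPKM values (linear vertical axes that start at 0) of Rcan1, Rcan2 and Rcan3 in the 4 groups on the horizontal axis, with 1 point per sample, the shape giving the replicate number, a bar for the mean and whiskers for the SD (n = 3). Rcan1 is lower in both differentiation groups, while Rcan3 lies at 1.13 to 2.09 or at 5.68 to 8.58 FPKM and is split within both differentiation groups.

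Rcan1 (ENSMUSG00000022951, chr16:92391953-92470867, minus strand), the feedback inhibitor with the promoters shown above, had the highest FPKM values of the RCAN genes in every group. Its FPKM values were 14.69, 14.07 and 14.35 in proliferating Ctrl (14.4 ± 0.310) and 16.02, 14.94 and 17.52 in proliferating NAD+ (16.2 ± 1.30). All 3 NAD+ samples were above the Ctrl samples, with a fitted change of 0.17 (SE 0.09). Under differentiation conditions the values were 8.06, 7.50 and 7.04 in Ctrl (7.53 ± 0.511) and 7.59, 8.03 and 7.40 in NAD+ (7.67 ± 0.323). These groups overlapped, and the fitted change of 0.03 had a 95% interval from -0.15 to 0.21 (adjusted p = 0.860). Rcan1 fell from proliferation to differentiation by 0.92 on the log2 scale in Ctrl (SE 0.08, adjusted p = 2.40e-06) and by 1.06 in NAD+ (SE 0.08, adjusted p = 6.70e-07). With quantile normalization the change in NAD+ was -0.67, still past the threshold. The tables do not separate its transcripts, so the internal and upstream starts could not be compared.

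Rcan2 (ENSMUSG00000039601, chr17:43801351-44039516, plus strand), the RCAN gene best known from brain and muscle, had the lowest group mean of the RCAN genes except in the NAD+ group under proliferating conditions. There its FPKM values were 2.35, 1.98 and 2.05 (2.13 ± 0.197), against 2.01, 1.25 and 1.57 in Ctrl (1.61 ± 0.382), and the groups overlapped. Under differentiation conditions they were 0.88, 0.95 and 0.82 in Ctrl (0.883 ± 0.0651) and 1.32, 1.75 and 1.10 in NAD+ (1.39 ± 0.331). All 3 NAD+ samples were above the Ctrl samples, the fitted change was 0.58 (SE 0.19, 95% interval 0.12 to 1.03), and it did not pass the threshold (adjusted p = 0.128). Rcan2 fell with differentiation by 0.78 in Ctrl (SE 0.20, adjusted p = 0.00580) and by 0.60 in NAD+ (SE 0.20, adjusted p = 0.0219). With a pseudocount of 1 these changes were -0.46 and -0.39, both past the threshold. The call in NAD+ was lost with median-ratio scaling (adjusted p = 0.194) and quantile normalization (adjusted p = 0.121). It was lost as well without replicate 1 of proliferating NAD+ (adjusted p = 0.0705) and without replicate 1 or 3 of differentiation NAD+ (adjusted p = 0.0583 and 0.0893).

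The makeup of the summed RCAN FPKM values followed Rcan3. Rcan1 made up 61.0% ± 2.57 of the sum in proliferating Ctrl and 80.0% ± 1.85 in proliferating NAD+, and Rcan3 made up 32.2% ± 4.01 and 9.40% ± 0.907. Under differentiation conditions the share of Rcan3 ranged from 14.0% to 44.2% in Ctrl and from 10.4% to 40.1% in NAD+. The sum itself was 23.6 ± 0.791, 20.2 ± 1.35, 13.2 ± 2.48 and 11.8 ± 2.12 FPKM in proliferating Ctrl, proliferating NAD+, differentiation Ctrl and differentiation NAD+.

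Ppp3r1 (ENSMUSG00000033953, chr11:17159263-17200375, plus strand), the regulatory B subunit, was the most abundant of the 10 genes under proliferating conditions. Its FPKM values there were 36.13, 39.39 and 43.81 in Ctrl (39.8 ± 3.85) and 39.00, 44.32 and 46.05 in NAD+ (43.1 ± 3.67), and the groups overlapped. Under differentiation conditions they were 21.66, 20.91 and 20.06 in Ctrl (20.9 ± 0.801) and 19.22, 20.94 and 19.65 in NAD+ (19.9 ± 0.895), and the groups overlapped again (change -0.07, 95% interval -0.20 to 0.07, adjusted p = 0.531). The gene fell with differentiation by 0.92 in Ctrl (SE 0.09, adjusted p = 4.64e-06) and by 1.11 in NAD+ (SE 0.09, adjusted p = 9.59e-07), with no overlap of the samples. With quantile normalization these falls were smaller, at -0.50 and -0.66, and both passed the threshold. Ppp3r1 shares 462 exon bases, 14.3% of its own, with Wdr92 on the same strand, which was at 2.27 to 5.80 FPKM, so some reads could have been assigned to either gene or to neither.

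Ppp3ca (ENSMUSG00000028161, chr3:136670124-136937727, plus strand), the catalytic subunit most abundant in brain, varied little among the groups. Its FPKM values were 18.29, 20.66 and 20.45 in proliferating Ctrl (19.8 ± 1.31) and 20.35, 19.13 and 19.04 in proliferating NAD+ (19.5 ± 0.732). Under differentiation conditions they were 16.91, 18.24 and 16.40 in Ctrl (17.2 ± 0.950) and 19.65, 20.84 and 20.39 in NAD+ (20.3 ± 0.601). All 3 differentiation NAD+ samples were above the Ctrl samples. The change of 0.24 (SE 0.06, 95% interval 0.10 to 0.38) had an adjusted p of 0.0652. It passed the threshold with median-ratio scaling (0.32, adjusted p = 0.0341) and with quantile normalization (0.29, adjusted p = 0.0376). In Ctrl the gene fell with differentiation by 0.20 (SE 0.07, adjusted p = 0.0264). This call was lost with median-ratio scaling (-0.07, adjusted p = 0.366), in a fit of the 6 samples alone (adjusted p = 0.0804) and without replicate 2 or 3 of proliferating Ctrl or replicate 1 or 3 of differentiation Ctrl (adjusted p from 0.0736 to 0.0966), and the sign turned with quantile normalization (0.14, adjusted p = 0.101). In NAD+ the change with differentiation was 0.06 (adjusted p = 0.503), and with median-ratio scaling it was 0.34 (adjusted p = 0.00106).

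Ppp3cb (ENSMUSG00000021816, chr14:20499364-20546573, minus strand), a second catalytic subunit, had a mean of 6.79 ± 0.777 FPKM in proliferating Ctrl (6.04, 6.73 and 7.59) and 8.10 ± 1.08 in proliferating NAD+ (9.32, 7.29 and 7.68). Under differentiation conditions its FPKM values were 7.07, 6.99 and 7.34 in Ctrl (7.13 ± 0.183) and 3.83, 6.16 and 5.94 in NAD+ (5.31 ± 1.29). The proliferating groups overlapped, and all 3 differentiation NAD+ samples were below the Ctrl samples, with replicate 1 the lowest. The change under differentiation conditions was -0.45 (SE 0.18, 95% interval -0.88 to -0.02) and did not pass the threshold (adjusted p = 0.192). The change with differentiation was 0.08 in Ctrl (95% interval -0.29 to 0.45, adjusted p = 0.722). In NAD+ the gene fell by 0.62 (SE 0.17, adjusted p = 0.00804), which was lost with median-ratio scaling (adjusted p = 0.102) and quantile normalization (adjusted p = 0.171). Without replicate 1 of differentiation NAD+ the change was -0.41 (adjusted p = 0.0188).

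The remaining subunit genes were not among the 10. The catalytic gene Ppp3cc had mean FPKM values of 4.86 ± 0.335, 6.01 ± 0.415, 4.20 ± 0.606 and 5.61 ± 0.183 in proliferating Ctrl, proliferating NAD+, differentiation Ctrl and differentiation NAD+, and its change of 0.42 under differentiation conditions did not pass the threshold (adjusted p = 0.0833). Ppp3ca made up 58.1% to 65.1% of the summed FPKM values of the 3 catalytic genes in the group means. The share of Ppp3cb was 25.1% ± 1.79 in differentiation Ctrl and 16.9% ± 3.31 in differentiation NAD+, while that of Ppp3ca was 60.2% ± 0.389 and 65.1% ± 1.74. Neither share overlapped between these samples. Under proliferating conditions both shares moved the other way. That of Ppp3cb was 21.5% ± 1.46 in Ctrl and 24.0% ± 1.60 in NAD+, with overlap. That of Ppp3ca was 62.9% ± 1.38 and 58.1% ± 1.69, with no overlap. Ppp3r2, the B subunit gene known from testis, stayed at or below 0.42 FPKM.

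**Figure D2:**
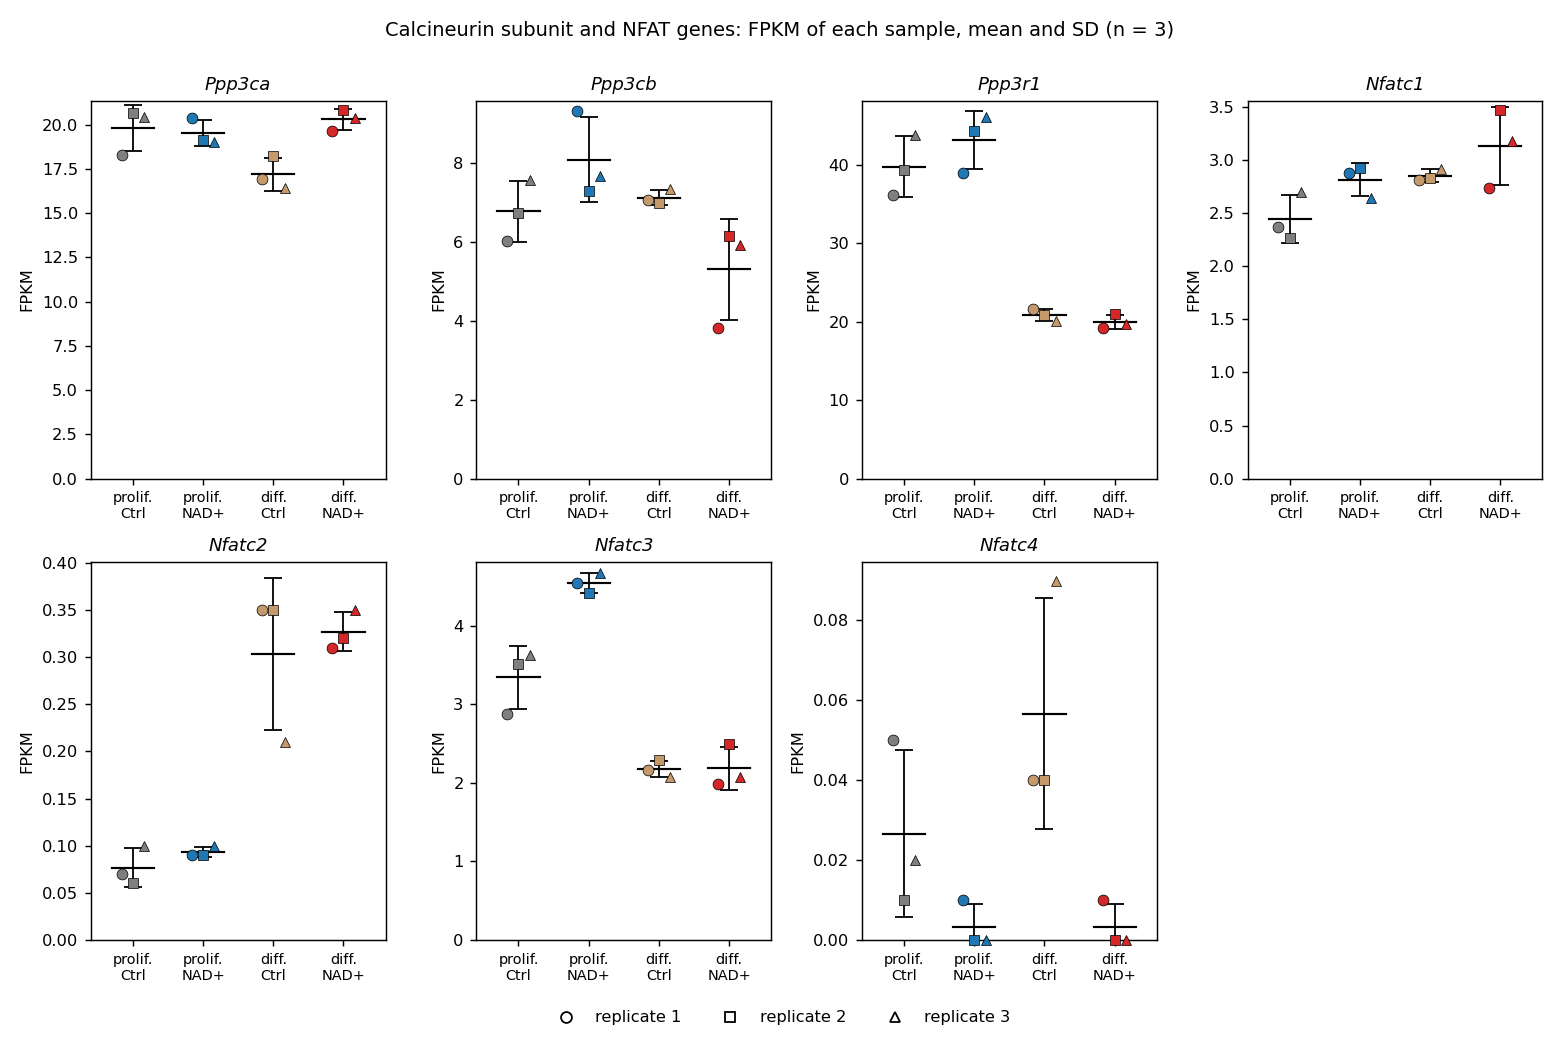
FPKM values (linear vertical axes that start at 0 and differ between panels) of the calcineurin subunit genes and the NFATc genes in the 4 groups on the horizontal axis, with 1 point per sample, the shape giving the replicate number, a bar for the mean and whiskers for the SD (n = 3; whiskers that would run below 0 end at the axis). Ppp3r1 and Nfatc3 are lower in both differentiation groups, Nfatc2 is higher in them, and no Nfatc4 value exceeds 0.09 FPKM.

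Nfatc3 (ENSMUSG00000031902, chr8:106058840-106130537, plus strand), an NFAT known from T cells and muscle, and Nfatc1 were the NFATc genes with group means of at least 1 FPKM. The FPKM values of Nfatc3 were 2.88, 3.51 and 3.63 in proliferating Ctrl (3.34 ± 0.403) and 4.54, 4.42 and 4.67 in proliferating NAD+ (4.54 ± 0.125). All 3 NAD+ samples were above the Ctrl samples, with a fitted change of 0.44 (SE 0.12). Under differentiation conditions they were 2.16, 2.29 and 2.08 in Ctrl (2.18 ± 0.106) and 1.98, 2.49 and 2.08 in NAD+ (2.18 ± 0.270), and the samples overlapped (95% interval of the change -0.29 to 0.28, adjusted p = 0.997). Whether the effect of NAD+ differed between the conditions was not tested. Nfatc3 fell with differentiation by 0.59 in Ctrl (SE 0.12, adjusted p = 0.00140) and by 1.03 in NAD+ (SE 0.12, adjusted p = 2.03e-05). It shares 219 exon bases with Esrp2 on the opposite strand, which was at most at 0.03 FPKM.

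Nfatc1 (ENSMUSG00000033016, chr18:80606205-80713071, minus strand), known from lymphocytes, heart valves and bone, had FPKM values of 2.37, 2.27 and 2.70 in proliferating Ctrl (2.45 ± 0.225) and 2.88, 2.93 and 2.64 in proliferating NAD+ (2.82 ± 0.155). Under differentiation conditions they were 2.81, 2.83 and 2.92 in Ctrl (2.85 ± 0.0586) and 2.74, 3.47 and 3.18 in NAD+ (3.13 ± 0.368). Ctrl and NAD+ overlapped under both conditions, and the change under differentiation conditions was 0.12 (95% interval -0.14 to 0.38, adjusted p = 0.538). With differentiation the change was 0.22 in Ctrl (adjusted p = 0.121) and 0.14 in NAD+ (adjusted p = 0.299). Median-ratio scaling brought both past the threshold, at 0.34 (adjusted p = 0.0227) and 0.42 (adjusted p = 0.00859), and quantile normalization the one in NAD+, at 0.40 (adjusted p = 0.0146).

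Nfatc2 (ENSMUSG00000027544, chr2:168476410-168601657, minus strand), a main NFAT of lymphocytes, was near the resolution of the tables, which list FPKM values in steps of 0.01. It was listed at 0.07, 0.06 and 0.10 FPKM in proliferating Ctrl and at 0.09, 0.09 and 0.10 in proliferating NAD+. In differentiation Ctrl it was listed at 0.35, 0.35 and 0.21 and in differentiation NAD+ at 0.31, 0.32 and 0.35. All differentiation samples were above all proliferating samples, with fitted rises of 1.18 in Ctrl (SE 0.23, adjusted p = 0.00100) and 1.14 in NAD+ (SE 0.23, adjusted p = 0.00113). The size of these changes depended on the pseudocount: with 1 in place of 0.1 they were 0.27 and 0.28, and with 0.01 they were 1.84 and 1.70, all past the threshold. The gene met the minimum mean of 0.1 FPKM over the 12 samples only through the differentiation samples, where it was high. The summed FPKM values of the leukocyte markers were 0 to 0.28, 0.10 to 0.31, 0.05 to 0.35 and 0.03 to 0.25 in proliferating Ctrl, proliferating NAD+, differentiation Ctrl and differentiation NAD+.

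Nfatc4 (ENSMUSG00000023411, chr14:55823144-55833943, plus strand), an NFAT known from neurons and heart, stayed below the minimum and was not tested. It was listed at 0.05, 0.01 and 0.02 FPKM in proliferating Ctrl and at 0.04, 0.04 and 0.09 in differentiation Ctrl. In both NAD+ groups it was listed at 0.01 in replicate 1 and at 0 in the other samples. No fold is given at these levels. In the summed FPKM values of the 4 NFATc genes, Nfatc3 had 56.6% ± 3.20 and Nfatc1 41.6% ± 2.67 in proliferating Ctrl, against 40.4% ± 1.16 and 53.0% ± 1.92 in differentiation Ctrl. The order of the pair was thus inverted between the conditions, with no overlap of the samples in either share. Nfat5, a relative that lacks the calcineurin-binding region, varied widely within groups. Under differentiation conditions it was at 3.73, 6.37 and 6.95 FPKM in Ctrl and at 2.35, 1.88 and 7.0 in NAD+. Replicate 1 of Ctrl and replicates 1 and 2 of NAD+ were thus its lowest, as for Rcan3. Under proliferating conditions it was at 3.01, 4.50 and 1.05 FPKM in Ctrl and at 1.85, 3.92 and 1.26 in NAD+, and these groups overlapped, unlike those of Rcan3. The reason was not tested.

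Counted over the genes, the comparisons read as follows. Under proliferating conditions 8 of the 10 genes passed the minimum of 0.1 FPKM, and in 3 of the 8 the samples of NAD+ and Ctrl did not overlap (Rcan1 and Nfatc3 higher, Rcan3 lower). Over the 18597 genes tested the groups did not overlap in 24.1%, and 0.145% passed an adjusted p of 0.05. Nothing is read from these counts for the 10 genes, since this comparison was known when they were chosen. The median change was 0.18 over the 8 genes and 0.07 over all genes tested.

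Under differentiation conditions 9 of the 10 genes were tested for NAD+ against Ctrl, and 0 passed an adjusted p of 0.05 in limma, against 6.92% of the 19611 genes tested. At an unadjusted p under 0.05 there were 3, namely Ppp3ca, Rcan2 and Ppp3cb, and the samples of the same 3 genes did not overlap, against 30.7% of all genes tested. The median change was 0.03 over the 9 genes and -0.08 over all genes tested. The 95% intervals of Rcan1, Ppp3r1, Nfatc1 and Nfatc3 lay between -0.29 and 0.38 on the log2 scale, whereas that of Rcan3 ran from -2.80 to 0.97. Of the 6 astrocyte markers 4 were higher in every NAD+ sample than in every Ctrl sample in this comparison (Gfap, at 977 ± 18.8 against 595 ± 48.1 FPKM, Slc1a3, Slc1a2 and S100b). The other 2 were lower without overlap (Aldh1l1, at 61.3 ± 3.17 against 93.5 ± 2.83 FPKM, and Aqp4). Of the 6 progenitor markers 4 were lower and Vim was higher without overlap, and the part of these markers was not tested.

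From proliferation to differentiation, 6 of the 9 genes tested passed in Ctrl, with Nfatc2 higher and Rcan1, Rcan2, Ppp3ca, Ppp3r1 and Nfatc3 lower, against 56.7% of 19498 genes. In NAD+ 6 of the 9 passed, with Nfatc2 higher and Rcan1, Rcan2, Ppp3cb, Ppp3r1 and Nfatc3 lower, against 58.4% of the same genes. The shares of 66.7% were near those of all genes, so passing the threshold does not set the 9 genes apart. Nfatc2 had to differ to be tested, and without it 5 of 8 passed, all lower in the FPKM values as deposited. That direction depended on the scaling. In NAD+, 3 genes passed higher (Nfatc2, Ppp3ca and Nfatc1) and 3 lower (Rcan1, Ppp3r1 and Nfatc3) with median-ratio scaling and with quantile normalization. In Ctrl, 2 passed higher (Nfatc2 and Nfatc1) and 4 lower (Rcan1, Rcan2, Ppp3r1 and Nfatc3) with median-ratio scaling, and 1 higher and 4 lower with quantile normalization. Over all genes, the share of calls that were higher went from 35.6% to 51.0% in NAD+ and from 44.2% to 51.8% in Ctrl with median-ratio scaling. The median changes were -0.59 over the 9 genes and -0.06 over all genes in Ctrl, and -0.60 and -0.20 in NAD+. The comparisons in Ctrl and NAD+ share no sample, but both were taken from 1 fit of all 12 samples and share its estimate of the spread. In both, the progenitor markers Nes, Sox2 and Fabp7 were lower and Msi1 was higher in every differentiation sample than in every proliferating sample, and in NAD+ Vim was higher too. The astrocyte markers Gfap, Aqp4, Slc1a2 and Slc1a3 were higher in both and S100b was lower, so neither list moved as a whole. Condition, medium and the table that held the values cannot be told apart, and whether the tables were scaled together is not stated. Median-ratio scaling moved the median of all genes in NAD+ from -0.20 to 0.05 and in Ctrl from -0.06 to 0.06. Under both scaling alternatives Rcan1, Ppp3r1 and Nfatc3 stayed lower and past the threshold in both comparisons. Without replicate 1 of proliferating Ctrl 6 genes still passed in Ctrl, and without replicate 1 of proliferating NAD+ 5 passed in NAD+. Over all genes, 10940 of 19537 and 10880 of 19544 passed in these fits.

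**Figure D3:**
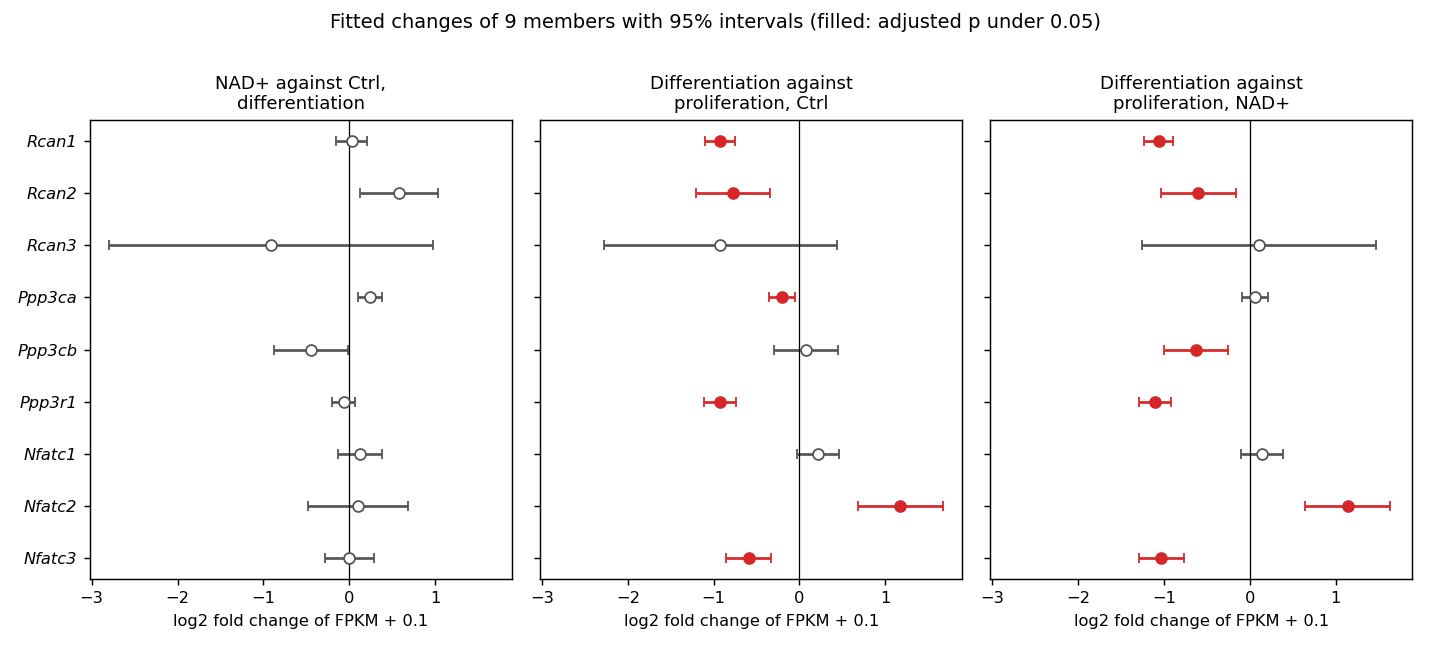
Fitted log2 fold changes of FPKM + 0.1 (horizontal axis) with 95% intervals for 9 genes in 3 comparisons, filled in red where the limma adjusted p was under 0.05. For NAD+ against Ctrl under differentiation conditions 0 of 9 genes are filled, and for differentiation against proliferation 6 of 9 are filled in each of Ctrl and NAD+, with the interval of Rcan3 the widest in all 3.

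Around the 10 genes, 74 other genes of the pathway were grouped in 6 lists: other subunits with Nfat5, calcineurin regulators and anchors, calcium entry and release, NFAT kinases, calcineurin substrates and known NFAT targets. The lists were written with earlier results of these data known. Their counts and shares are therefore a description, from which nothing is read for the lists as such, and the p-values of list genes carry the same limit. Under proliferating conditions 1 of the 58 tested passed, against 0.145% of all genes tested, namely the substrate Gap43, a growth cone protein. Its FPKM values were 48.37, 45.41 and 52.04 in Ctrl and 23.12, 24.54 and 24.29 in NAD+. It fell by 1.01 on the log2 scale (SE 0.08, adjusted p = 0.0266), and the count was 0 when any 1 sample other than replicate 1 of Ctrl was left out. Those same fits called 0 to 2 genes over all genes, against 27 with every sample. Gap43 also fell with NAD+ under differentiation conditions, from 9.08, 10.01 and 9.40 FPKM to 6.18, 6.63 and 6.70 (limma change -0.54, adjusted p = 0.0110).

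Under differentiation conditions 9 of the 63 tested passed for NAD+ against Ctrl, 1 higher and 8 lower. This is 14.3%, against 6.92% of all genes tested. With either scaling alternative 2 passed higher and 5 lower, while over all genes the calls went from 445 higher and 912 lower to 613 and 532 with median-ratio scaling. The NFAT target Egr3, an immediate early transcription factor, rose from 0.15, 0.44 and 0.37 FPKM in Ctrl to 1.09, 0.94 and 0.98 in NAD+ (change 1.47, adjusted p = 0.0442). The phosphatase inhibitor gene Ppp1r1a fell from 16.56, 17.66 and 16.64 FPKM to 7.38, 8.44 and 8.46 (change -1.06, adjusted p = 0.00333). Tox, a transcription factor gene induced by NFAT in T cells, fell from 0.50 to 0.54 FPKM in Ctrl to 0.18 to 0.23 in NAD+ (change -1.06, adjusted p = 0.0314). The calcium release channel genes Ryr3 (change -0.94, adjusted p = 0.0449) and Itpr2 (change -0.67, adjusted p = 0.0297) and the phospholipase gene Plcg2 (change -0.62, adjusted p = 0.0373) fell as well. Under proliferating conditions Egr3 (1.36), Ppp1r1a (-0.92) and Tox (-1.31) changed in the same directions. Their samples did not overlap there, but none passed the threshold in limma (adjusted p = 0.252, 0.0868 and 0.0861). Ryr3, Itpr2 and Plcg2 overlapped between NAD+ and Ctrl under those conditions. The count of 9 under differentiation conditions fell to 2 or 3 when any 1 sample was left out. Over all genes the calls fell as well, from 1357 to between 328 and 719. Egr3 and Tox, both listed as NFAT targets, changed in opposite directions. The NFAT kinases had 0 of 8 past the threshold, with a median change of -0.08, the same as over all genes.

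From proliferation to differentiation in Ctrl, 43 of the 63 list genes passed, 22 higher and 21 lower, which is 68.3% against 56.7% of all genes tested. In the proliferating samples only 58 list genes met the minimum of 0.1 FPKM. Itpr3, Ryr2, Atp2b2, Ksr2 and Ptgs2 met it only through the differentiation samples, where they were higher on average. Of these, Itpr3 and Ryr2 (calcium entry and release) and Ksr2 (substrates) are among the 22 higher, so the filter partly fixed that count. Of the regulators and anchors 7 of 9 fell and 1 rose, with a median change of -0.71, and Ppia, the cyclophilin through which cyclosporin acts on calcineurin, fell from 165.69 to 236.16 FPKM to 35.94 to 64.66 (change -2.02, adjusted p = 2.35e-05). Of the NFAT kinases 4 of 8 fell and 0 rose (median -0.50). Of the substrates 9 of 14 rose and 3 fell (median 0.47), with Ppp1r1b, which encodes a phosphoprotein regulated by dopamine and cAMP, at a change of 3.15 (adjusted p = 1.09e-05) and Gap43 at -2.34 (adjusted p = 2.08e-09). Of the calcium entry and release genes 11 of 23 rose and 6 fell (median 0.18). Among them the calcium sensor of the endoplasmic reticulum Stim1 rose (change 1.69, adjusted p = 1.68e-06), and the calmodulin gene Calm2 fell (change -2.13, adjusted p = 6.76e-08). Of the NFAT targets 1 of 6 rose and 1 fell. In NAD+, 41 of the 63 passed, 17 higher and 24 lower, which is 65.1% against 58.4% of all genes tested. Itpr3, Ryr2, Atp2b2 and Ksr2 are among these 17 higher, with the same limit from the filter. With median-ratio scaling the split was 25 higher and 17 lower, while over all genes it went from 4050 higher and 7336 lower to 5614 and 5388.

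**Figure D4:**
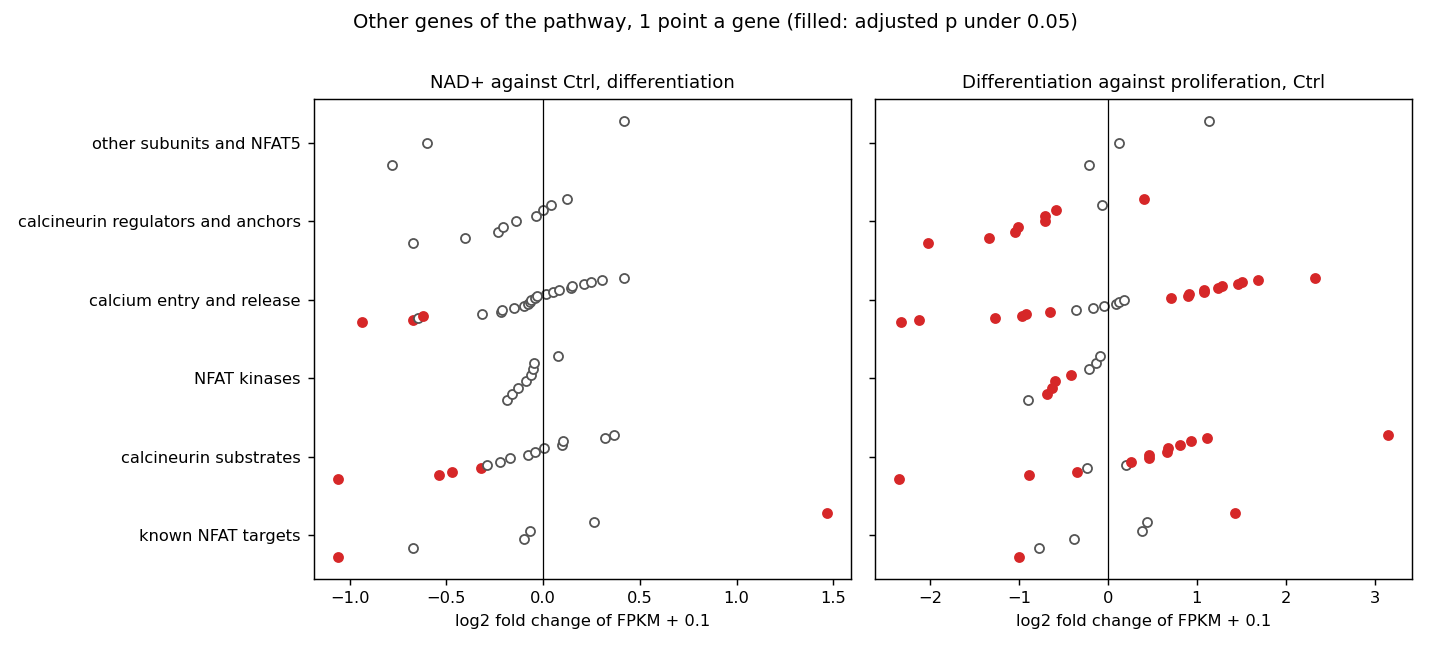
Fitted log2 fold changes of FPKM + 0.1 (horizontal axes, which differ between panels) of the pathway genes that were tested, with 1 point per gene, grouped by list and spread vertically by rank within a list, filled in red where the limma adjusted p was under 0.05. For NAD+ against Ctrl under differentiation conditions 9 of 63 points are filled, and for differentiation against proliferation in Ctrl 43 of 63 are filled.

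The profiles most like that of Rcan3 were sought among 12927 genes with a mean of at least 1 FPKM, by the root mean square difference of the centred log2(FPKM + 0.1) values over the 12 samples. The 5 nearest were Gm13552 (0.66), B230323A14Rik (0.68), Slc44a5 (0.70), C130071C03Rik (0.74) and Gm14113 (0.76). Gm13552 was at 0.90, 2.30 and 1.56 FPKM in differentiation Ctrl and at 1.07, 0.49 and 1.52 in differentiation NAD+. Its lowest differentiation values were thus in the samples where Rcan3 was low. Its proliferating groups overlapped, at 1.11, 2.73 and 2.36 FPKM in Ctrl and 0.81, 1.40 and 1.17 in NAD+. B230323A14Rik and Gm14113 did not have that order under differentiation conditions. Slc44a5 encodes a choline transporter-like protein, and its FPKM values were 2.74, 2.38 and 2.45 in proliferating Ctrl against 1.02, 0.83 and 0.69 in proliferating NAD+. Under differentiation conditions it was at 1.15, 1.27 and 1.37 in Ctrl and at 0.84, 0.42 and 0.72 in NAD+, without the split among replicates that Rcan3 had. C130071C03Rik had its lowest differentiation value at 5.09 FPKM in both replicate 1 of Ctrl and replicate 2 of NAD+, where Rcan3 was low as well, and stood at 9.05 in replicate 3 of NAD+, where Rcan3 was high. In replicate 1 of NAD+, where Rcan3 was at 1.29 FPKM, it stood at 7.28, so its values were not split as those of Rcan3 were. None of the remaining 9 calcineurin, RCAN and NFAT genes was among the 5.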

How the data were processed

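RNA-seq was performed by the authors on 12 aNSPC samples in 4 groups of 3. Reads were mapped to mm10 with Hisat2 v2.0.5, uniquely mapped reads were kept, and FeatureCounts v2.0.1 assigned them to genes. The deposited values are FPKM, 1 column a sample in 2 tables (1 per condition), rounded by the authors to 0.01. The program that computed the FPKM values is not given in the sources used here. The tables also hold the authors' fold changes, their log2 values, p-values and q-values, none of which was used here. The number of sample columns left unused was 0.

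Groups were taken from the sample titles. From the FPKM values, log2(FPKM + 0.1) was fitted with limma 3.58.1 (eBayes with trend, R 4.3.3, two-sided), keeping genes with a mean of at least 0.1 FPKM. NAD+ was compared with Ctrl in the 6 samples of each table, and differentiation with proliferation in a fit of all 12 samples. P-values were adjusted by Benjamini-Hochberg over all genes tested, with a threshold of 0.05. A fold change on this scale understates the change of genes with low values. The scripts were tested on simulated data. The alternatives were pseudocounts of 1 and 0.01, no filter, a minimum mean of 1 FPKM, median-ratio scaling, quantile normalization, the replicate number as a block, a fit of the 6 samples compared, and leaving out each sample.

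The genes and lists were chosen with earlier results of these data known. All 10 genes are named, with at most 6 pathway genes per comparison, those with the largest absolute change among genes past the threshold (with a mean of at least 1 FPKM between conditions), and the 5 profiles nearest to Rcan3. Of the genes this rule names, 1 is not reported here. Positions are from GENCODE M21 (GRCm38, the same build as mm10), and promoters from RefSeq. Read depth is unknown, so no counting error is given.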

Additional observations from a re-analysis of the deposited data

How the results depend on the processing

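Under proliferating conditions the change of Rcan3 stayed between -2.07 and -1.57 under every alternative run. For NAD+ against Ctrl under differentiation conditions the count of calcineurin, RCAN and NFAT genes past the threshold went from 0 to 1 with median-ratio scaling and with quantile normalization (Ppp3ca in each), and stayed at 0 in the other alternatives. In the same comparison small changes turned sign: Nfatc3 was at 0.00018 with a pseudocount of 1, 0.0787 with median-ratio scaling, 0.0984 with quantile normalization and -0.0954 to 0.0628 without any 1 sample, and Ppp3r1 was at 0.0169 with median-ratio scaling. Without any 1 sample Rcan1 ran from -0.0196 to 0.0767 and Nfatc2 from -0.0779 to 0.191. Between conditions, Ppp3ca in Ctrl was at 0.143 with quantile normalization, and without any 1 sample Ppp3cb in Ctrl ran from -0.0031 to 0.159 and Rcan3 in NAD+ from -0.605 (without replicate 3 of differentiation NAD+) to 0.511. The count for differentiation against proliferation was 5 or 6 under every alternative in both Ctrl and NAD+, but the genes differed: in NAD+ both scalings gave 3 higher and 3 lower (against 1 and 5), with Ppp3ca and Nfatc1 gained and Rcan2 and Ppp3cb lost. Over all genes, the calls between conditions ran from 8600 of 12928 to 11236 of 31357 in Ctrl. In NAD+ they ran from 9031 of 12928 to 11597 of 19342. The pathway count for NAD+ under differentiation conditions went from 9 to 4 without a filter, 5 with a minimum mean of 1 FPKM and 2 to 3 without any 1 sample, and that under proliferating conditions from 1 to between 0 and 1 without any 1 sample. Over all genes the calls under differentiation conditions went from 1357 to 977 without a filter and 1589 with that minimum mean. Without any 1 sample they were 328 to 719, and under proliferating conditions they went from 27 to between 0 and 36. The cause of these shifts was not tested.

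Whether samples with the same replicate number share more than the number is not stated. The deviations of same-numbered samples correlated at 0.0215 to 0.111 under proliferating and 0.0257 to 0.0432 under differentiation conditions, and 4 of 6 and 6 of 6 samples correlated best with their own number. In the fits with a replicate block, the pathway counts were 0 under proliferating and 3 under differentiation conditions, 0 of the 9 genes passed for NAD+ under differentiation conditions, and 6 of 9 passed between conditions in Ctrl and in NAD+. Over all genes, the block lowered the count from 1357 to 758 under differentiation conditions and from 27 to 0 under proliferating conditions. Between conditions, 10903 of 19498 genes passed with the block in Ctrl and 11218 in NAD+, against 11048 and 11386 without it.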
